A study of Mus musculus with 2 samples.

Results

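Reticular cells with high levels of immediate early genes were marrow stromal cells of the mouse femur that carried many transcripts of Fos, Jun and Egr1. They were chosen by their measured values in 2 libraries of cells sorted for Cxcl12-GFP, one library from each of 2 mice. A reticular cell was a cell with at least 10 unique molecular identifiers (UMIs, single counted transcripts) per 10000 of Adipoq, Lpl and Hp together, more of these than of the osteoblast genes Alpl, Wif1, Kcnk2 and Spp1, and at most 1 UMI of the blood cell gene Ptprc and of the endothelial gene Cdh5. A cell counted as immediate early gene-high if its summed Fos, Jun and Egr1 lay at or above the 75th percentile of the reticular cells of its library, and if its heat shock sum (Hspa1a, Hspa1b and Dnajb1) lay below the 85th percentile. This gave 654 immediate early gene-high cells, 251 from Mouse #1 and 403 from Mouse #2, of 4386 reticular cells and 7332 cells in all.

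Both mice carried a GFP allele of Cxcl12 and a tdTomato reporter at R26R, each as 1 copy, and a Cxcl12-iCreER transgene, a tamoxifen-inducible recombinase driven from a bacterial artificial chromosome of the Cxcl12 locus. Tamoxifen was given at postnatal day 21 and the femurs were taken at day 28. The series had no untreated or second group, so every comparison here is between classes of cells of the same animals, and 2 mice are the replicates. All cells passed through enzymatic digestion of the bone with shaking at body temperature and through the sorter before the RNA was captured. The labels differ on the sort, since one field names GFP+ cells and the extraction text tdTomato+ cells. The eGFP transcript stood at 12470 and 12170 CPM (UMIs scaled to a common total per sum of cells) in the immediate early gene-high cells of the 2 mice and at 57.2 and 131 CPM in Ptprc-positive cells.

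Immediate early genes are genes whose transcription starts within minutes of a stimulus, without the need for new protein. Fos and Jun proteins pair into the transcription factor AP-1, and Egr1 is a zinc finger factor. Their targets include the feedback genes that end the response, among them phosphatases of the MAP kinases and proteins that bring about the decay of short-lived mRNAs. Reticular cells, the Cxcl12-abundant stromal cells that line marrow sinusoids, supply Cxcl12 and stem cell factor to blood-forming cells. Fos, Jun and Egr1 are also known to be induced by the dissociation of solid tissue. Every cell here was dissociated in the same way, so levels from before and after that step cannot be told apart.

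The score had no gap at the threshold. The 75th percentile was 69.4 UMIs of Fos, Jun and Egr1 per 10000 in Mouse #1 and 60.3 in Mouse #2. In Mouse #1 the lowest immediate early gene-high cell stood at 69.5 and the highest cell below the threshold at 69.4, and in Mouse #2 both stood at 60.3. The immediate early gene-high cells ran up to 614 in Mouse #1 and 502 in Mouse #2, with medians of 121 and 92.2. The medians of the other reticular cells below the heat shock limit, 1047 and 2027 cells, were 5.92 and 6.99, and 157 and 198 of these cells held no UMI of the 3 genes. Within 10% above the threshold lay 31 and 50 of the immediate early gene-high cells. All 251 cells of Mouse #1 would also have passed the threshold of Mouse #2, and 328 of the 403 cells of Mouse #2 that of Mouse #1. Fos gave 45.1% of the 3 genes' UMIs in the immediate early gene-high cells of Mouse #1 and 37.9% in Mouse #2, Jun 37.5% and 43.9%, and Egr1 17.4% and 18.2%. All 3 genes were found in 242 of the 251 cells and in 398 of the 403.

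**Figure D1:**
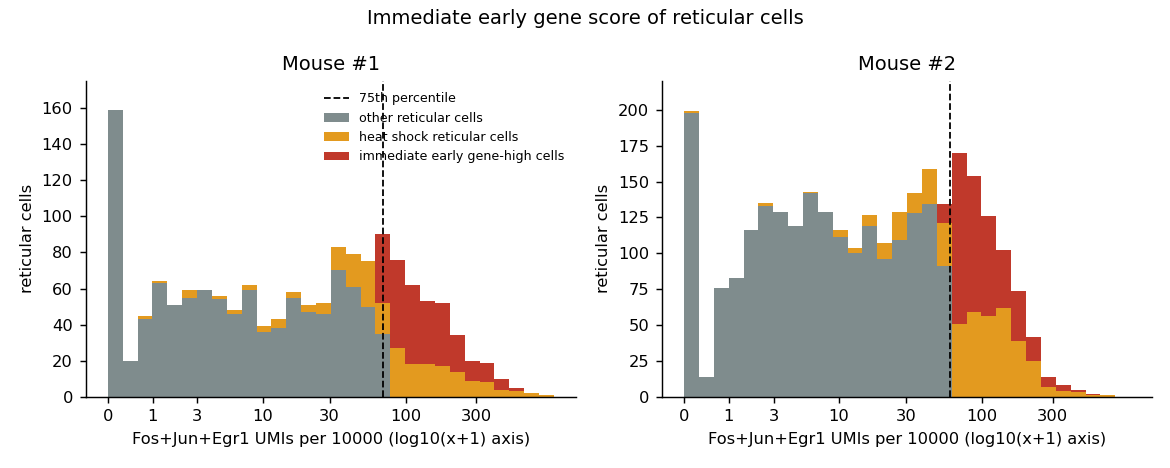
Number of reticular cells (vertical axis) by summed Fos, Jun and Egr1 UMIs per 10000 (horizontal log10(x+1) axis) in each mouse, stacked by class, with the 75th percentile of each library as a dashed line. The score is continuous across the threshold at 69.4 and 60.3, and the heat shock reticular cells lie mostly towards high scores.

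The depth of the immediate early gene-high cells was close to that of the other reticular cells. Their median UMI count was 12859 in Mouse #1 and 11593 in Mouse #2, against 12793 and 11651 in the other reticular cells, and the median share of mitochondrial UMIs was 3.62% and 3.66% against 3.69% and 3.88%. Malat1, a nuclear non-coding RNA, took a median of 5.23% and 5.28% of UMIs against 4.62% and 4.90%. Of 8 reticular markers, 3 had been used by the rule. Among the other 5, Gas6 stood at 3161 and 2693 CPM in the immediate early gene-high cells against 3124 and 2792 in the other reticular cells. Gdpd2 stood at 830 and 1088 CPM against 839 and 1028, Agt at 736 and 755 CPM against 771 and 744, and Cp at 573 and 753 CPM against 541 and 663. None of these 4 passed the test across all genes, and the fifth, Esm1, is given with the niche genes. Over all cells the libraries held a median of 12966.5 and 12190 UMIs, and 7 cell barcodes occurred in both, of which 2 were immediate early gene-high cells of Mouse #1 and 0 of Mouse #2.

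The transcripts of the immediate early gene-high cells were summed per mouse and compared with those of the other reticular cells of the same mouse, to ask which genes outside the rule move with Fos, Jun and Egr1. Of 11776 genes tested (edgeR quasi-likelihood test with the mouse as a block, Benjamini-Hochberg adjusted p under 0.05), 153 were higher in the immediate early gene-high cells, which is 1.3% of all genes, and 174 were lower, which is 1.48%, or 2.78% in either direction. Without the block 18 were higher and 15 lower. These genes were read in the same cells as the score, so a low p describes how far a gene moved with the score within these 2 mice, and not a response to a treatment. Levels of single genes below are normalised CPM, and the values of 2 mice are given in the order Mouse #1, Mouse #2. Levels in bins of cells, sums of markers and levels of the reporter transcripts are plain CPM, without the scaling factors of the fit. Fos itself, given as a description since it chose the cells, stood at 6600 and 4142 CPM against 389 and 359, Jun at 5484 and 4790 against 806 and 766, and Egr1 at 2544 and 1986 against 315 and 280.

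Among 9 further AP-1 and related subunits, 3 were higher and none was lower. Atf3, a stress-induced partner of Jun, stood at 609 and 396 CPM against 116 and 108 (log2 fold change 2.13 ± 0.12 SE, adjusted p = 7.45e-05). Junb stood at 2628 and 2124 CPM against 762 and 783 (1.61 ± 0.10, adjusted p = 0.000112). Both genes were higher in either mouse than in either sum of the other reticular cells, with log2 ratios of 2.39 and 1.86 for Atf3 and 1.79 and 1.44 for Junb. Fosb stood at 2723 and 1622 CPM against 894 and 955 (1.16 ± 0.19, adjusted p = 0.0187), with a log2 ratio of 1.61 in Mouse #1 and 0.76 in Mouse #2, and did not pass in DESeq2 (adjusted p = 0.0654). Fosl2, Jund, Maff, Maf, Batf and Fosl1 did not pass, and Fosl2 was at 112 and 58.4 CPM against 91.3 and 96.0, above in one mouse and below in the other. The median log2 fold change of the 9 genes was 0.49, beside 0.00076 over all genes tested. DESeq2 called 2 of the 9 higher and 1 lower.

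Of 21 other induced transcription factors, 11 were higher, 1 was lower and 9 did not pass, with a median log2 fold change of 0.87. Egr2, a zinc finger factor related to Egr1, stood at 64.3 and 39.1 CPM against 13.1 and 7.79 (2.31 ± 0.13, adjusted p = 7.45e-05). Ier2 stood at 500 and 388 CPM against 120 and 119 (1.87 ± 0.11, adjusted p = 7.45e-05). The Krüppel-like factors Klf2 and Klf6 stood at 2063 and 1896 CPM against 660 and 791, and at 1663 and 1324 CPM against 560 and 538. The ranges of the 2 classes were separate for these 4 genes. Nr4a1, an orphan nuclear receptor, was higher by a log2 fold change of 1.23 ± 0.11, and Hes1, a repressor known as a Notch target, by 1.32 ± 0.11. Csrnp1 differed more between the mice, at 90.9 and 30.8 CPM against 23.0 and 18.8 (1.37 ± 0.25, adjusted p = 0.0253). Snai1, a repressor of epithelial genes, was the 1 gene of the list that was lower, at 33.7 and 35.0 CPM against 45.1 and 61.7 (-0.64 ± 0.13, adjusted p = 0.046; DESeq2 adjusted p = 0.188). With the score threshold at the 90th percentile its log2 fold change was -0.09 (adjusted p = 0.841), and it did not pass in 6 alternatives in all. Myc, Ier5, Id2 and Id3 were the other higher genes, and Klf4, Klf9, Klf10, Nr4a2, Nr4a3, Bhlhe40, Srf, Egr3 and Id1 did not pass.

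The feedback inhibitors were the list with the most genes that passed: 17 of 25 were higher, 0 lower, and 8 did not pass (median log2 fold change 0.92). All 25 had a higher level in both mice, beside 30.8% of all genes tested. Without adjustment 23 of the 25 reached p under 0.05 with a higher level and 0 with a lower one, and DESeq2 called 15 higher and 0 lower. Zfp36, which binds AU-rich elements and brings about mRNA decay, stood at 1246 and 1025 CPM against 245 and 278 (2.11 ± 0.12, adjusted p = 7.45e-05). Dusp1, a phosphatase of MAP kinases, stood at 1067 and 965 CPM against 226 and 289 (1.98 ± 0.12, adjusted p = 8.99e-05). Dusp6, the phosphatase of ERK, was far lower in level, at 26.7 and 29.2 CPM against 8.23 and 7.49 (1.84 ± 0.15, adjusted p = 0.000485). The antiproliferative gene Btg2 stood at 851 and 988 CPM against 376 and 337 (1.37 ± 0.12, adjusted p = 0.000598). Socs3, the inhibitor of gp130 and JAK signalling, stood at 723 and 495 CPM against 211 and 266 (1.33 ± 0.18, adjusted p = 0.00706). In all 5 genes both mice lay above both sums of the other reticular cells, which held for 21.2% of all genes tested. Gadd45g, Ppp1r15a, Ier3, Nfkbiz, Spry4, Spry2, Trib1, Btg1, Gadd45a, Dusp4, Zfp36l1 and Zfp36l2 were also higher, by log2 fold changes of 0.75 (Spry2) to 1.71 (Gadd45g). Nfkbiz was among those that DESeq2 did not call (adjusted p = 0.213). In edgeR it did not pass with stricter cell filters (adjusted p = 0.067) or with cells matched on UMIs (0.0541). Nfkbia, the inhibitor of NF-kB, did not pass, at 1266 and 908 CPM against 662 and 768 (0.57 ± 0.17, adjusted p = 0.162), nor did Tnfaip3, Per1, Sik1, Cish, Dusp2, Dusp5 and Gadd45b.

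**Figure D2:**
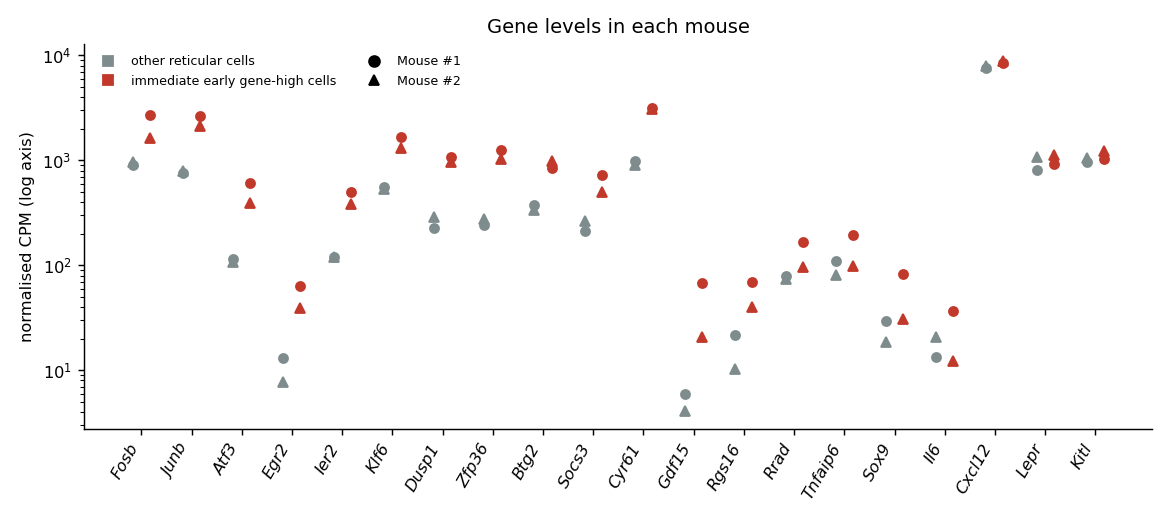
Normalised CPM (log axis) of 20 genes in immediate early gene-high cells and other reticular cells, each point 1 mouse. The points of Fosb to Rgs16 are separate between the classes in both mice, Il6 is above in Mouse #1 and below in Mouse #2, and Cxcl12, Lepr and Kitl lie close together.

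Short sequences of the promoters of 4 genes, chosen by hand among the higher genes, are shown. Each carries a site for factors known to act early in such responses, within 250 bases before to 50 bases after the RefSeq gene start (GRCm38.p6). Binding of these factors to the sites was not tested. The palindrome TGACGTCA is the full cyclic AMP response element, and the CArG box is the site of serum response factor. Each line holds 30 bases, read 5′ to 3′ on the strand of the gene, with the motif in capitals.
Dusp1, chr17:26508597-26508626, minus strand: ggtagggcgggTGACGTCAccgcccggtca
Btg2, chr1:134079303-134079332, minus strand: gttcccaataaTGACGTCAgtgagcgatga
Zfp36, chr7:28379267-28379296, minus strand: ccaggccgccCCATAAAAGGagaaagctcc
Egr2, chr10:67537787-67537816, plus strand: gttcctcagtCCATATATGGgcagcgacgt
The motif started 143 bases before the gene start in Dusp1, 166 in Btg2, 58 in Zfp36 and 72 in Egr2, where 4 of 5 promoters given held a CArG box. TGACGTCA, which reads the same on both strands, occurred in 7 of the 109 higher genes with a promoter in the RefSeq table (6.42%), in 4 of 120 lower genes (3.33%) and in 340 of 8852 genes tested (3.84%), and 27025 promoters of all genes held it in 2.03%. The CArG box occurred in 6 higher genes (5.5%), 3 lower genes (2.5%) and 144 genes tested (1.63%). The AP-1 site, TGACTCA on either strand, occurred in 2 of the higher genes (1.83%), 9 of the lower genes (7.5%) and 365 of the genes tested (4.12%). These shares describe letters in the windows, and no test was run on them.

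Rgs16, Rrad, Tnfaip6 and Sox9 were given with Fos and Egr1 as markers of these cells. Rgs16, a GTPase-activating protein that shortens signalling from G protein-coupled receptors, was higher in both mice, at 68.9 and 39.9 CPM against 21.7 and 10.2 (1.81 ± 0.13, adjusted p = 0.000241). After each cell was thinned to 2000 UMIs, a Rgs16 UMI was found in 8.37% of immediate early gene-high cells of Mouse #1 (Wilson bounds at 95%, 5.54% and 12.5%) and in 3.47% of those of Mouse #2 (2.08% and 5.75%), against 2.97% and 1.88% of other reticular cells. The share in Ptprc-positive cells, given for comparison, was 0.498% in Mouse #1, and 0 of 193 cells in Mouse #2 allows up to 1.55%. Without thinning, the immediate early gene-high cells had a Rgs16 UMI in 27.9% and 13.2% of cells, and the other reticular cells in 12.7% and 7.35%. The median depth was 11025 and 8017 UMIs in the Ptprc-positive cells.

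The other 3 genes did not pass, and they differed more in Mouse #1 than in Mouse #2. Sox9, the master factor of cartilage, stood at 82.4 and 30.6 CPM against 29.7 and 18.4 (1.08 ± 0.28, adjusted p = 0.0972). Rrad, a small GTPase that lowers calcium channel activity, stood at 168 and 95.6 CPM against 79.0 and 74.7 (0.72 ± 0.16, adjusted p = 0.0547). Tnfaip6, a hyaluronan-binding protein of inflamed matrix, stood at 195 and 97.7 CPM against 109 and 81.4 (0.54 ± 0.15, adjusted p = 0.128). Their levels were higher in both mice, as were those of 30.8% of all genes tested. With only these 2 classes in the fit all 3 passed, with adjusted p = 0.00119 for Sox9, 0.0123 for Rrad and 0.0273 for Tnfaip6, and Rrad also passed in DESeq2 (adjusted p = 0.0129). The fit of 2 classes has fewer sums from which to estimate the spread. It called more genes of every kind, 241 higher and 327 lower against 153 and 174. In Mouse #1 the log2 ratios were 1.46, 1.09 and 0.84 for Sox9, Rrad and Tnfaip6, and in Mouse #2 they were 0.72, 0.35 and 0.26. The thinned share of cells with a Sox9 UMI was 11.2% (7.83% to 15.7%) in Mouse #1 against 5.56% of other reticular cells, and 5.71% (3.83% to 8.42%) in Mouse #2 against 3.12%, while 0 of 201 and 0 of 193 Ptprc-positive cells had one, which allows up to 1.49% and 1.55%. Unthinned, the Sox9 shares were 35.1% and 15.4% against 18.4% and 11.4%. Cartilage genes were near 0: of 5 chondrocyte markers 4 were at 0 in the immediate early gene-high cells of Mouse #1 and 2 in Mouse #2, and their sum was 0.289 and 3.79 CPM against 3.13 and 3.57. Of the 10 skeletal and cartilage genes tested, Sox4 was higher (720 and 746 CPM against 478 and 461, 0.64 ± 0.08, adjusted p = 0.00529) and the other 9 did not pass.

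Of 11 regulators of G proteins and small GTPases tested, 4 were higher and none lower, with a median log2 fold change of 0.78. Beside Rgs16 these were Rgs4, of the same family, at 93.3 and 152 CPM against 64.8 and 58.1, and the small GTPases Rhob, at 444 and 576 CPM against 225 and 234, and Rnd3, at 188 and 182 CPM against 99.4 and 96.3. Rhob (1.14 ± 0.11, adjusted p = 0.00103) and Rnd3 moved by like amounts in both mice, whereas the log2 ratio of Rgs4 was 0.52 in Mouse #1 and 1.38 in Mouse #2. Rgs1 stayed under the filter on low counts.

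Secreted factors moved gene by gene. Cyr61, a matricellular protein that binds integrins, had the smallest adjusted p of all list genes, at 3185 and 3064 CPM against 991 and 900 (1.73 ± 0.06, adjusted p = 4.79e-06). Gdf15, a stress-induced hormone of the TGF-beta family, stood at 68.4 and 20.9 CPM against 5.91 and 4.09 (2.93 ± 0.37, adjusted p = 0.00569), with its level in Mouse #1 far above that in Mouse #2. Hbegf, a ligand of the EGF receptor, was low in every sum but higher, at 15.5 and 6.04 CPM against 3.25 and 2.50 (1.75 ± 0.36, adjusted p = 0.0458). Its direction held, but it did not pass in 7 alternatives, with adjusted p from 0.0609 without cells rich in blood cell transcripts to 0.402 without the block. Inhba, the activin subunit, was lower, at 4.11 and 3.83 CPM against 10.8 and 9.72 (-1.36 ± 0.24, adjusted p = 0.0244; DESeq2 adjusted p = 0.179). Ctgf, the relative of Cyr61, did not pass, at 806 and 1009 CPM against 850 and 719. These 4 were the only genes that passed among 12 growth factors and matricellular genes tested.

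Among 10 chemokines and cytokines tested, Cxcl1, which attracts neutrophils, was the 1 that passed, at 355 and 195 CPM against 79.9 and 116 (1.46 ± 0.27, adjusted p = 0.0264), and DESeq2 called 0 of the 10 (adjusted p = 0.109 for Cxcl1). In edgeR, Cxcl1 did not pass with cells matched on UMIs (adjusted p = 0.067). Nor did it pass against other cells with scores below the median (0.0548). Il6 went in opposite directions in the 2 mice, at 37.0 and 12.3 CPM against 13.3 and 20.5. Ccl2 stood at 302 and 821 CPM against 420 and 1005 and did not pass. Of 15 inflammatory matrix genes tested none was higher by edgeR, 1 by DESeq2 and 3 at an unadjusted p under 0.05. The urokinase receptor Plaur was lower, at 0.59 and 1.01 CPM against 8.17 and 6.09 (adjusted p = 0.0133), from 2 and 5 UMIs in the immediate early gene-high cells. It did not pass with cells matched on UMIs (adjusted p = 0.0708) or with a reticular limit of 20 (0.0932), and without cells rich in blood cell transcripts it was under the filter on low counts and had no test. Of 10 interferon response genes, Irf1 was higher, at 571 and 635 CPM against 230 and 327 (1.13 ± 0.12, adjusted p = 0.00251), and the interferon-induced genes Cxcl9, Cxcl10, Gbp2, Isg15 and Bst2 did not pass.

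The supply genes Cxcl12, Kitl and Lepr differed little and did not pass. Cxcl12 stood at 8466 and 8757 CPM against 7606 and 7848 (0.16 ± 0.05, adjusted p = 0.162). Kitl, stem cell factor, stood at 1022 and 1229 CPM against 962 and 1061 (0.15 ± 0.07), and Lepr, the leptin receptor, at 916 and 1133 CPM against 812 and 1086 (0.12 ± 0.08). Of 23 niche genes tested 3 were higher and none lower (median log2 fold change 0.16). At an unadjusted p under 0.05 there were 9 higher and 1 lower, and 18 had a higher level in both mice, beside 30.8% of all genes tested. The 3 higher genes were Grem1, a BMP antagonist, at 529 and 607 CPM against 304 and 399 (0.70 ± 0.08, adjusted p = 0.00392), the reticular cell factor Foxc1, at 409 and 560 CPM against 318 and 292 (0.65 ± 0.13, adjusted p = 0.036), and Ebf3, at 424 and 452 CPM against 332 and 343 (0.38 ± 0.08, adjusted p = 0.0426), which DESeq2 did not call (adjusted p = 0.0919). In edgeR, Foxc1 and Ebf3 did not pass with stricter cell filters (adjusted p = 0.0646 and 0.0692), a reticular limit of 20 (0.0593 and 0.087) or cells matched on UMIs (0.14 and 0.195). Esm1, a marker of reticular cells here, was also higher, at 1254 and 1295 CPM against 869 and 985 (0.46 ± 0.07, adjusted p = 0.0136). In edgeR, Esm1 did not pass with cells matched on UMIs (adjusted p = 0.0708) or without the block (0.149). Adipoq, used by the rule, stood at 1572 and 1612 CPM against 1512 and 1550.

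**Figure D3:**
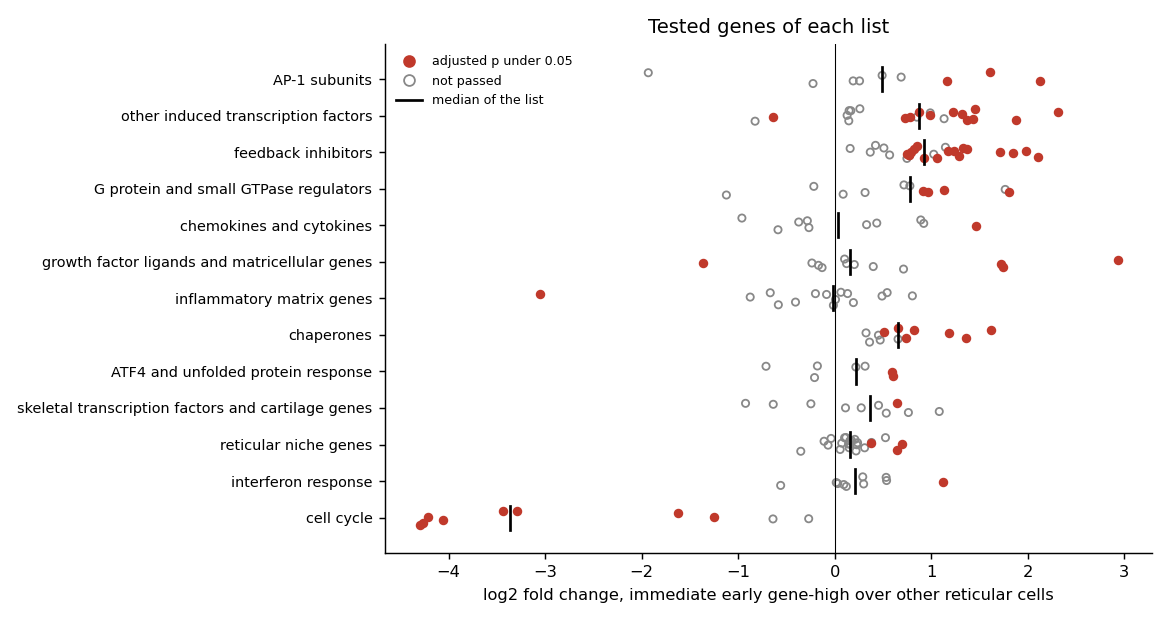
Log2 fold change of immediate early gene-high over other reticular cells (horizontal axis) for each tested gene of 13 lists, filled where the adjusted p was under 0.05, with the median of each list as a black bar. Feedback inhibitors and induced transcription factors lie to the right of 0 with medians of 0.92 and 0.87, niche genes lie near 0, and cell cycle genes to the left with a median of -3.36.

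Chaperones outside the rule were higher too, although cells rich in Hspa1a, Hspa1b and Dnajb1 had been left out of both classes. Of 12 chaperones 7 were higher and none lower, with a median log2 fold change of 0.66. Hsp90aa1, the inducible form of Hsp90, stood at 889 and 1185 CPM against 439 and 461 (1.19 ± 0.09, adjusted p = 0.000452). Hspa8, the constitutive Hsp70, stood at 2630 and 2460 CPM against 1493 and 1563 (0.74 ± 0.06, adjusted p = 0.000712). The small heat shock protein Hspb1 stood at 71.6 and 227 CPM against 37.2 and 49.4 (1.62 ± 0.24, adjusted p = 0.0109), with the larger ratio in Mouse #2. The genes the rule used, as a description, stood at 43.7 and 170 CPM against 15.8 and 52.8 for Hspa1a, so that within the limit it was higher too. Of 7 genes of the ATF4 and unfolded protein response tested, Ddit3 (0.61 ± 0.11, adjusted p = 0.0272) and Herpud1 (0.59 ± 0.10, adjusted p = 0.0199) were higher and 5 did not pass.

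The cell cycle list went the other way. Of its 10 genes 8 were lower by edgeR, 7 by DESeq2 and 10 at an unadjusted p under 0.05, and none was higher by any of these, with a median log2 fold change of -3.36. Pcna and Mcm6 did not pass. All 10 had a lower level in both mice, beside 30.3% of all genes tested. Mki67 stood at 1.17 and 1.81 CPM against 40.6 and 21.2 (-4.21 ± 0.32, adjusted p = 0.000385), and Top2a, the topoisomerase of dividing cells, at 4.11 and 3.22 CPM against 55.5 and 27.8 (-3.43 ± 0.28, adjusted p = 0.000485). Few cells carried these transcripts: with at least 3 UMIs of Mki67, Top2a, Cdk1 and Birc5 together, a sum chosen after their values were seen, there were 0 of 251 immediate early gene-high cells in Mouse #1, which allows up to 1.2%, and 1 of 403 in Mouse #2. Among the other reticular cells there were 63 of 1047 (6.02%, 95% Wilson interval 4.73% to 7.63%) and 45 of 2027 (2.22%, 1.66% to 2.96%), and 29 and 18 of these were also rich in transcripts of blood cells. The heat shock reticular cells had few as well, 1 of 229 (0.437%) and 3 of 429 (0.699%). None of the 10 genes passed between them and the immediate early gene-high cells, so the low level was not particular to the latter. Intervals and limits of this kind cover counting error only.

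Summed transcripts of myeloid cells differed between the classes in both mice, and those of erythroid cells mainly in Mouse #1. Of the 10 lowest genes outside the lists with at least 20 CPM in both mice, 9 were neutrophil genes, among them Elane, neutrophil elastase, at 4.69 and 1.61 CPM against 723 and 36.4, Camp at 31.7 and 15.3 CPM against 1208 and 381, Ngp at 18.8 and 11.7 CPM against 934 and 274, and S100a8 at 92.1 and 167 CPM against 4168 and 1356. The 7 myeloid markers summed to 215 and 399 CPM in the immediate early gene-high cells and to 8979 and 2859 CPM in the other reticular cells, and the 5 erythroid markers to 519 and 4607 CPM against 5631 and 5012. The 5 lymphoid markers reached at most 27.4 CPM in sum and the 3 megakaryocyte markers at most 13.6 CPM. Ptprc had been limited to 1 UMI per cell in both classes. In the other reticular cells, 72 and 82 cells with at least 20 UMIs of these 20 blood markers per 10000 held 96.7% and 94.8% of the blood marker UMIs, and the median cell had 5.46 and 4.30 per 10000 against 5.45 and 4.81 in the immediate early gene-high cells. Of the immediate early gene-high cells, 11 (4.38%) and 17 (4.22%) were rich in blood markers too, against 6.88% and 4.05% of the others. They held 27.2% and 91.0% of the blood marker UMIs of their class. Without all cells of this kind, a step chosen after seeing the data, 130 genes were higher, all of them among the 153, and 72 were lower, of which 66 were among the 174. S100a8, Ngp and Camp then had log2 fold changes of 0.17, 0.12 and 0.07, Elane -0.70 and Ltf -0.29, and none of these passed. Rgs4, Hbegf, Inhba, Foxc1 and Ebf3 kept their direction with adjusted p = 0.0913, 0.0609, 0.0803, 0.0755 and 0.0953. Mki67 was still lower without these cells (-3.54, adjusted p = 0.000787), as was Ube2c, a ubiquitin carrier of mitosis (-4.04, adjusted p = 0.000619). The part of blood transcripts in the remaining differences was not tested.

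Outside the lists, 78 further genes were higher in both mice at 20 CPM or more. The 10 with the largest fold changes were Gm17056, Lsmem1, Rasl11a, Milr1, Bambi, Gm26532, Phlda1, Plk2, Fam13a and Slc25a25. Gm17056, a transcript antisense to Lsmem1, stood at 101 and 88.6 CPM against 15.4 and 19.6 (2.42 ± 0.14, adjusted p = 7.45e-05), and Lsmem1 at 36.4 and 59.6 CPM against 8.37 and 14.5 (2.07 ± 0.14, adjusted p = 0.000211). Their gene bodies overlap in part, at 12:40198656-40201105 and 12:40175493-40199490 of GRCm38. The strand used in counting is not given in the sources used here, so reads of the shared stretch cannot be told apart. The 2 genes differed in the heat shock reticular cells, with Gm17056 at 53.3 and 51.4 CPM and Lsmem1 at 8.99 and 10.3 CPM. Lsmem1 also lies downstream of Ifrd1 (12:40201567-40248504), on the same strand. Whether the counts of Lsmem1 include reads from Ifrd1 was not tested. Rasl11a, a small GTPase of the nucleolus, stood at 247 and 236 CPM against 75.5 and 72.4 (1.71 ± 0.08, adjusted p = 4.65e-05). Bambi, a decoy receptor of TGF-beta and BMP, stood at 78.9 and 49.5 CPM against 20.8 and 24.2 (1.46 ± 0.19, adjusted p = 0.00624). Phlda1 stood at 452 and 449 CPM against 180 and 192 (1.28 ± 0.08, adjusted p = 0.000112). Beside these, 57 genes outside the lists were lower in both mice at 20 CPM or more in the other reticular cells, and the 10 lowest were the neutrophil genes Elane, Ltf, Ngp, Chil3, Camp, Lcn2, Wfdc21, S100a8 and S100a9 and the mitotic gene Ube2c.

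Over single cells, the genes that followed the score most closely came from the same groups. Among 3728 reticular cells below the heat shock limit, 1298 and 2430 in the 2 mice, Cyr61 had the highest mean Spearman correlation with summed Fos, Jun and Egr1 per 10000, 0.69 in Mouse #1 and 0.67 in Mouse #2. Zfp36 followed with 0.68 and 0.49, Junb with 0.66 and 0.50, Btg2 with 0.56 and 0.55, and Klf6 with 0.58 and 0.50. Fosb, Dusp1, Nr4a1, Irf1 and Ier2 completed the 10 most alike of 6074 genes ranked, and all 10 were among the genes higher in the summed comparison. Cells of 1 library share its depth, and the score itself had a correlation of 0.086 and 0.053 with the UMI count. These correlations are a description over cells, which are not replicates.

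When the same cells were put into 10 bins of equal size by their score, most of these genes were graded below the threshold as well. Cyr61 rose from bin to bin, from 126 CPM in the lowest bin to 3789 in the highest in Mouse #1 and from 202 to 3482 CPM in Mouse #2. Zfp36 went from 56.1 to 1547 CPM and from 104 to 1243 CPM. Fosb reached 3451 CPM in the highest bin of Mouse #1 and 1829 CPM in that of Mouse #2. Rgs16 stood at 95.2 and 58.6 CPM in the highest bin and at 43.0 and 14.5 CPM in the bin before it, so that in Mouse #2 its level was set apart in the top bin alone. Sox9 stood at 97.6 CPM in the highest bin of Mouse #1 and at 27.1 CPM in that of Mouse #2, where the sixth bin was higher, at 39.3 CPM. Cxcl12 stayed between 6169 and 8989 CPM and between 7256 and 8771 CPM over all bins. Its highest value was in the lowest bin in Mouse #1 and in the highest bin in Mouse #2.

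**Figure D4:**
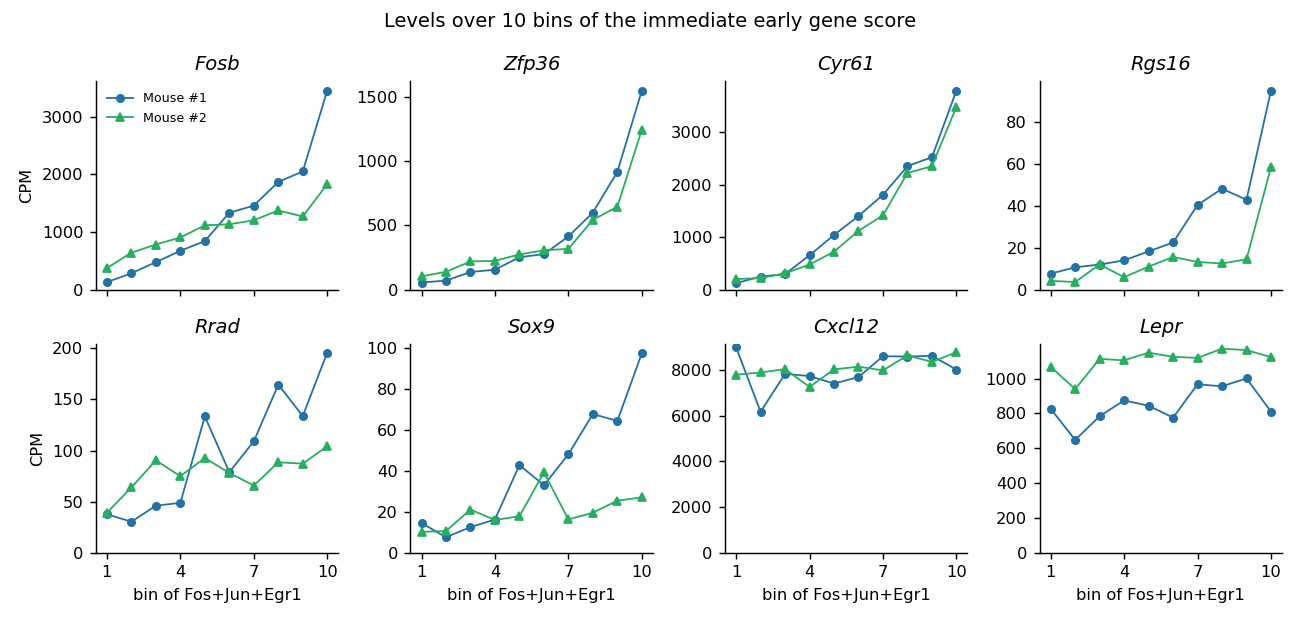
CPM of 8 genes (vertical axes) over 10 bins of reticular cells below the heat shock limit, ordered by summed Fos, Jun and Egr1 (horizontal axis), 1 line per mouse. Zfp36 and Cyr61 climb in both mice, Rgs16 is highest in the last bin at 95.2 and 58.6 CPM, Sox9 reaches 97.6 CPM in the last bin of Mouse #1 and 27.1 CPM in that of Mouse #2, and Cxcl12 spans 6169 to 8989 CPM over both mice.

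The size of the difference was not the same in the 2 mice. Of the 53 list genes that were higher, 33 had the larger log2 ratio in Mouse #1 and 20 in Mouse #2, and their median log2 ratio was 1.18 and 0.91. Gdf15, Cxcl1, Csrnp1 and Fosb were among those larger in Mouse #1, and Hspb1, Rgs4 and Foxc1 among those larger in Mouse #2. With 1 library per mouse this difference could not be tested.

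Heat shock reticular cells, 229 and 429 cells at or above the 85th percentile of Hspa1a, Hspa1b and Dnajb1, differed from the immediate early gene-high cells in few genes. Their median score was 84.2 and 93.3, and 131 of 229 (57.2%) and 312 of 429 (72.7%) would have passed the immediate early gene threshold. Only 4 genes were higher in the immediate early gene-high cells than in these (0.034% of 11776 tested) and 12 were lower (0.102%). Of the 55 AP-1 subunits, induced factors and feedback inhibitors none passed in edgeR or in DESeq2, with 3 higher and 7 lower at an unadjusted p under 0.05, and 23 had a higher level in both mice. Over all genes tested, 27.9% were higher and 26.4% lower in both mice. Zfp36, for one, stood at 1171 and 955 CPM in the heat shock cells (log2 fold change 0.10, adjusted p = 0.917), Cyr61 at 3388 and 3077 CPM, and Rgs16 at 68.3 and 43.1 CPM.

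The 12 lower genes were mostly chaperones, the kind of gene that defined the other class. Of the 12 listed chaperones 7 were lower in the immediate early gene-high cells, with Hsp90aa1 at 889 and 1185 CPM against 2051 and 2697 (-1.20 ± 0.09, adjusted p = 0.0023) and Hspb1 at 71.6 and 227 CPM against 432 and 917 (-2.25 ± 0.23, adjusted p = 0.0115). Hsph1, Dnaja1, Hspe1, Hspd1 and Hspa8 were the others, and Cthrc1, Gm26532, Gm26825 and F630028O10Rik were among the rest of the 12. The 4 higher genes were Lsmem1 at 36.4 and 59.6 CPM against 8.99 and 10.3 (2.35 ± 0.18, adjusted p = 0.0023), Pcdh10 at 22.9 and 9.67 CPM against 3.33 and 1.08, Agbl3 at 25.8 and 43.1 CPM against 10.99 and 17.9, and Ppm1n at 8.22 and 14.5 CPM against 0.67 and 0.18. In edgeR, Pcdh10 did not pass with stricter cell filters (adjusted p = 0.0986), a reticular limit of 20 (0.0683) or cells matched on UMIs (0.0916). Nor did it pass with the highest Scrublet scores removed (0.0603). Ppm1n did not pass with stricter cell filters (0.0621). Agbl3 stood at 21.1 and 31.5 CPM in the other reticular cells and did not pass against them (adjusted p = 0.162). Lsmem1 had 8.37 and 14.5 CPM in the other reticular cells, close to the heat shock cells. Rasl11a and Phlda1 stood at 344 and 354 CPM and at 635 and 685 CPM in the heat shock cells, above the immediate early gene-high cells, and did not pass (adjusted p = 0.0737 and 0.0516), while DESeq2 called both lower in the immediate early gene-high cells (0.032 and 0.00516).

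**Figure D5:**
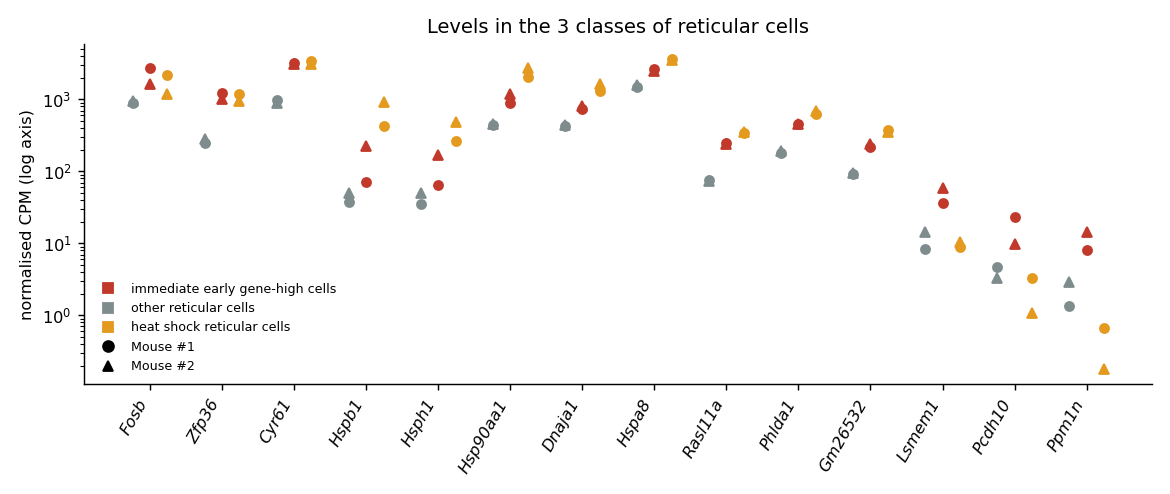
Normalised CPM (log axis) of 14 genes in other, immediate early gene-high and heat shock reticular cells, each point 1 mouse. Fosb, Zfp36 and Cyr61 are alike in the last 2 classes, chaperones rise from other to immediate early gene-high to heat shock cells, and Lsmem1, Pcdh10 and Ppm1n are highest in the immediate early gene-high cells.

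The lineage label was present in immediate early gene-high and other reticular cells at like shares. tdTomato transcripts above the 99th percentile of Ptprc-positive cells were found in 33.9% of the immediate early gene-high cells of Mouse #1 (Wilson bounds 28.3% and 39.9%) against 36.7% of other reticular cells (33.8% to 39.6%), and in 51.1% (46.3% to 56.0%) against 47.2% (45.1% to 49.4%) in Mouse #2. The intervals of these shares overlapped in both mice and the order differed. As CPM, tdTomato stood at 653.1 (exact Poisson interval 626.4 to 680.5) against 698.3 (684.9 to 712.0) in Mouse #1. In Mouse #2 it stood at 1151 (1122 to 1181) against 1068 (1056 to 1081), so the CPM intervals did not overlap. Intervals of both kinds cover counting error only and give no test between the classes. eGFP, carried in the Cxcl12 locus, was higher by a log2 fold change of 0.21 ± 0.04 (edgeR adjusted p = 0.0494), with 12470 and 12170 CPM against 10990 and 11040. With cells matched on UMIs the gap was smaller, at 12530 against 11570 CPM in Mouse #1 and 11930 against 11660 CPM in Mouse #2. The iCreER transcript was rare, at 7.51 CPM (exact Poisson interval 4.90 to 11) against 10.8 (9.20 to 12.6) in Mouse #1 and 28.9 (24.4 to 34.0) against 12.3 (11.03 to 13.76) in Mouse #2, so its order differed between the mice. The reporter sequences in the reference share stretches with one another, so these counts are uncertain.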

How the data were processed

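Cells of femoral marrow sorted by the authors were profiled by 10x 3′ v3 single-cell RNA-seq. Per the labels, Cell Ranger (3.0.0 in the file headers) and a custom mm10 genome with reporters were used; aligner settings and annotation release are not given in the sources used here. The authors deposited whole UMI counts per gene and barcode, unfiltered. Cells needed 1000 or more detected genes and no more than 15% mitochondrial UMIs. Members and gene lists were chosen with earlier results of these data known.

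UMIs were summed per mouse and class (member, other, heat shock) and tested with edgeR 4.0.16 (quasi-likelihood, TMM, filterByExpr, Benjamini-Hochberg over all genes). The mouse was a block, since classes came from the same animals: the difference between mice correlated by 0.39 (members and others) and 0.43 (members and heat shock cells) over 11789 genes. Scripts were tested on simulated data. The 15 genes of the rule were left out of calls. SE is the log2 fold change divided by the root of the F statistic. Each named gene belongs to a fixed list or is among the 10 highest or lowest outside them with adjusted p under 0.05, 1 direction in both mice and 20 CPM or more in both mice of the higher class; others were named after their values were seen. Ratios per mouse used a pseudocount of 0.5 CPM. Fewer cells carrying a transcript and less RNA per cell cannot be told apart in the sums. Doublets were kept: Scrublet's own threshold marked 6 and 3 cells (0.218% and 0.065%) and had not worked, so an alternative left out the 60 and 168 highest scores. Alternatives included DESeq2 1.42.0, filters, gates, thresholds and depth matching. Classes held 3463691 to 26016928 UMIs per mouse for members and others. 1 gene lower than in heat shock cells is counted but not reported here by name.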

Additional observations from a re-analysis of the deposited data

How the results depend on the processing

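Of the genes named, 62 were followed through the alternatives. Those of them that passed kept their direction, in either mouse alone too, except for 3 neutrophil genes without blood-rich cells, an alternative chosen after seeing the data, where Plaur had no value. Of the 62, 35 no longer passed without the replicate block, 10 with cells matched on UMIs and 6 with DESeq2. For immediate early gene-high against other reticular cells, 153 genes were higher and 174 lower. These counts became 328 and 497 without the filter on low counts, 241 and 327 with only the 2 classes in the fit, and 85 and 58 with cells matched on UMIs. Without the replicate block they fell to 18 and 15 (1144 genes at an unadjusted p under 0.05), all of them among the calls of the blocked fit. They became 118 and 112 with stricter cell filters, 136 and 83 with a reticular limit of 20, 194 and 111 with the 90th percentile, and 130 and 72 without blood-rich cells, where Ngp, Camp and S100a8 turned to 0.12, 0.06947 and 0.17 (log2). DESeq2 gave 122 higher, 108 of them shared, and 121 lower, 106 shared. Library sizes without the genes of the rule left all calls as they were. TMM factors make up for most of such a change, so this alternative could hardly have moved the calls. Removing the highest Scrublet scores gave 155 and 155.

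Against heat shock reticular cells, 4 genes were higher and 12 lower. They became 8 and 20 with DESeq2, 47 and 96 without the filter, 50 and 89 with only the 2 classes, 1 and 5 with stricter cell filters, and 0 and 0 in edgeR without the replicate block (482 genes at an unadjusted p under 0.05). The higher genes numbered 7 with a reticular limit of 20 and 8 without blood-rich cells, and the lower genes 7 with matched cells.

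With matched cells, eGFP was 12530 against 11570 CPM in Mouse #1 and 11930 against 11660 CPM in Mouse #2, a smaller gap than with all cells, and tdTomato was 656.3 against 798.9 CPM and 1163 against 1145 CPM. Without thinning, the share of cells with a Rgs16 UMI was 27.9% and 13.2% in immediate early gene-high cells and 12.7% and 7.35% in other cells, and that of Sox9 35.1% and 15.4% against 18.4% and 11.4%. The cause of these changes was not tested. Leaving out a mouse left 1 sum per class, so a ratio and no test. Counts limit the lowest genes, as Inhba had 14 and 19 UMIs and Mki67 4 and 9 UMIs in the immediate early gene-high cells.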

Other observations

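Further genes higher in the immediate early gene-high cells, named after their values were seen, lay outside the lists described so far. Smad7, an inhibitor of TGF-beta receptors, stood at 246 and 169 CPM against 172 and 124 (log2 fold change 0.48 ± 0.08, edgeR adjusted p = 0.0179). Socs1 stood at 62.5 and 29.8 CPM against 25.0 and 17.7, and Spry1 at 200 and 246 CPM against 127 and 119. Sgk1 and Tsc22d3, known targets of the glucocorticoid receptor, stood at 314 and 207 CPM against 176 and 140, and at 335 and 378 CPM against 208 and 298. The homeobox genes Hoxa9 and Hoxa10 were higher as well, Hoxa9 at 109 and 131 CPM against 65.3 and 63.4 (0.90 ± 0.10, adjusted p = 0.00297) and Hoxa10 at 126 and 153 CPM against 84.7 and 94.1. Gapdh, the glycolytic enzyme often used as a reference gene, was lower, at 397 and 377 CPM against 532 and 496 (-0.41 ± 0.08, adjusted p = 0.036). Gapdh and the higher genes named with it were not followed through the alternatives. The part of blood-rich or cycling cells in their differences was not tested.

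Several of the higher genes lie beside one another. Of 152 higher genes with a position in the annotation (GRCm38), 17 lay within 25 kb of another higher gene, those used by the rule included (11.2%), against 138 of 11608 other genes tested (1.19%). Fam71a lies 5479 bases beyond Atf3, Gm26802 lies 1926 bases beyond Fosb and Ppm1n 18196 bases beyond Gm26802, each on the same strand and downstream. Gm26802 stood at 19.4 and 47.5 CPM against 3.78 and 7.91. Gm26669 overlaps Zfp36l1, Gm26735 overlaps Sox4 and Milr1 overlaps Polg2 on opposite strands. Whether these are transcripts of their own or reads of the neighbour was not tested.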
